A study of Mus musculus with 4 samples.

Results

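The genes of the proteasome were examined in the gastrocnemius, a hindlimb muscle, of CDF1 mice with and without a tumor and with and without exercise. The genes were chosen by symbol alone, as every row whose symbol starts with Psma, Psmb, Psmc, Psmd, Psme, Psmf or Psmg and a number. This gave 50 of the 23282 gene rows. They were grouped as 14 subunits of the 20S core (Psma and Psmb), 17 subunits of the 19S cap (Psmc and Psmd), 3 subunits of the immunoproteasome (Psmb8, Psmb9 and Psmb10), 5 activators (Psme), 7 assembly chaperones (Psmg, with Psmd5, Psmd9 and Psmd10) and 4 other genes (Psma8, Psmb11, Psmf1 and Psmc3ip). Transcripts had been counted by QuantSeq, which reads polyadenylated RNA from its 3′ end. There were 4 libraries, 1 for each group. The normal control mice [E(−)T(−)] had neither exercise nor a tumor, and the normal exercise mice [E(+)T(−)] ran on a treadmill at high intensity. The cancer control mice [E(−)T(+)] carried a tumor of CT26 mouse colorectal cancer cells, given through the tail vein so that it spread through the body. The cancer exercise mice [E(+)T(+)] had the same tumor and the same exercise. The labels give postnatal day 28 for all 4 libraries and 10 mice per group. The paper, in contrast, describes the sequenced muscle as that of a single representative animal of each group, and it places collection well after the purchase of young mice. The number of animals in a library and their age at collection were therefore not settled.

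The proteasome is the main protease of the cytosol and nucleus, and degrades proteins that carry ubiquitin chains. Its 20S core is a barrel of stacked alpha and beta rings with the catalytic sites inside, and the 19S cap binds the ubiquitin chain, removes it, unfolds the protein and opens the core. In skeletal muscle the proteasome is best known for breaking down the contractile proteins during wasting, together with the muscle ubiquitin ligases Trim63 and Fbxo32. In cells exposed to interferon the 3 catalytic subunits of the core can be replaced by those of the immunoproteasome, which cuts peptides suited to presentation on class I molecules.

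The libraries held a total of 11269823 reads for normal control, 13226083 for normal exercise, 10647458 for cancer control and 11026563 for cancer exercise. With 1 library per group, no difference below has a replicate check and no test between conditions was made. A gene is called higher or lower when it differed 2-fold or more and its normalized read count reached 4 in 1 of the libraries compared. Fold changes are log2 values, taken after adding 1 to each normalized read count. The intervals are exact 95% intervals that cover the counting error of the reads only. All 12 muscle markers examined, among them the skeletal actin Acta1 and the myosin heavy chain Myh4, had reads in every library, and together they took 7.39% to 10.5% of the reads. The 6 markers of fibroblasts took 0.659% of the reads in normal control and less in the others, with 0.385% in the normal exercise library and, among tumor mice, 0.318% without and 0.305% with exercise. Their median log2 fold change in cancer control against normal control was -3.30, with Col1a1 at -6.28 and Dcn, which holds most of these reads, at -0.71. Their part in the results was not tested. In bulk muscle, fewer cells of a type and less RNA per cell cannot be told apart.

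By symbol, 31 subunits of the 20S core and the 19S cap were matched. Adrm1 and Shfm1 are cap subunits too, but lie outside the symbol rule and are not among the 31. In cancer control against normal control Adrm1 differed by 2.16 and Shfm1 by -0.55 on the log2 scale. The 31 subunits mostly followed the same order. Their lowest normalized read count was in the normal control library for 28 of them, and the highest was in the cancer control library for 28. For 21 of the 31, the complete order ran upward from normal control over normal exercise and cancer exercise to cancer control. As whole classes, the immunoproteasome, activators and chaperones did not follow this order, although the single genes Psme3 and Psmd9 did. Of the 15 immunoproteasome, activator and chaperone genes, 8 had their highest value in normal exercise and 8 had their lowest value in cancer control. These orders were not counted over all genes, so they are not shown to be particular to the proteasome.

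**Figure D1:**
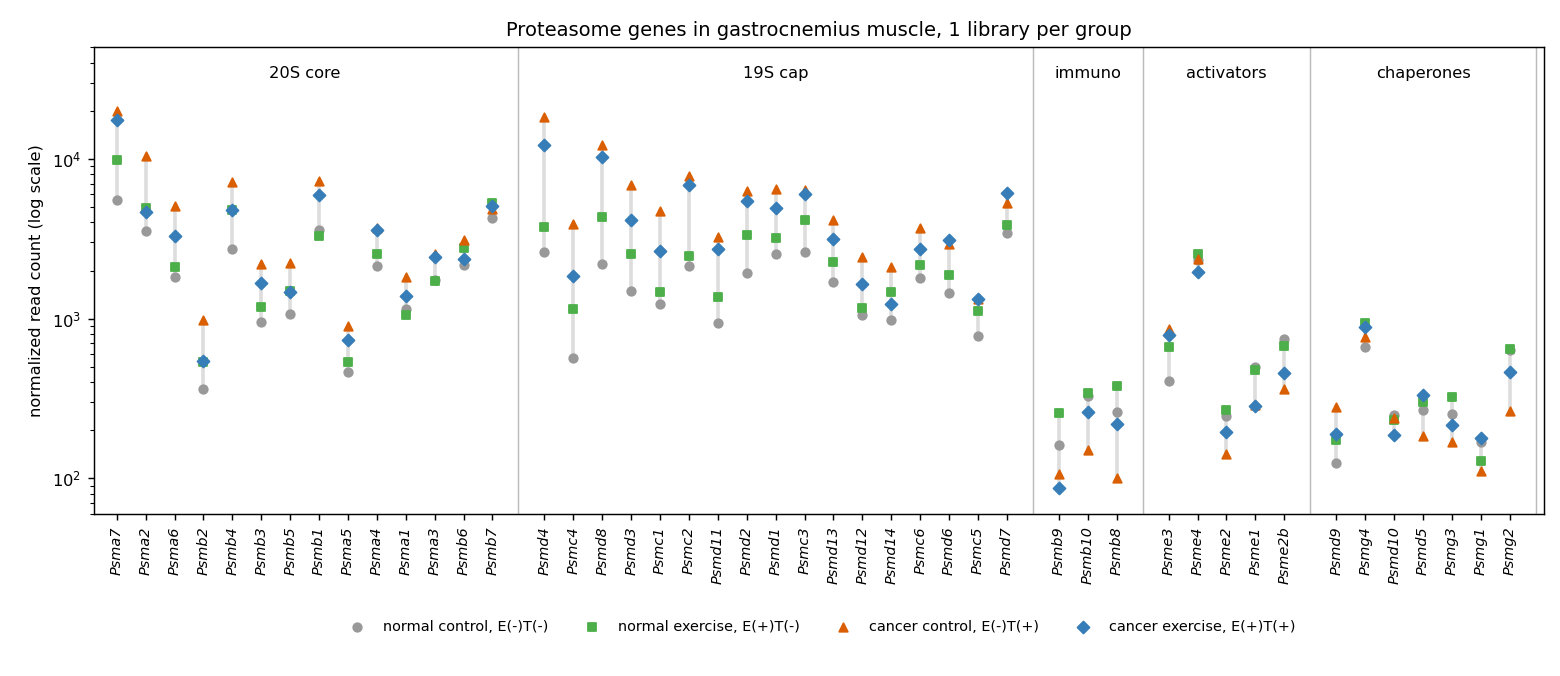
Normalized read count (log scale) of the proteasome genes of these 5 classes in each of the 4 libraries, 1 point per library, sorted within each class by the change in cancer control against normal control. For 28 of the 31 core and cap genes the cancer control triangle is the highest point, while for Psmb8, Psmb10, Psme2, Psme2b and Psmg2 it is the lowest.

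Summed over their genes, the core and the cap were highest in cancer control and the immunoproteasome was lowest there. Summed reads are given as CPM, the reads of the class scaled to a common library total. The 14 core genes took 2627 CPM in normal control and 3917 in normal exercise, against 6351 in cancer control and 4633 in the cancer exercise library. The 17 cap genes took 2459, 3884, 8601 and 6411 CPM in the same order. Core and cap were thus near each other in reads in both libraries without a tumor, and the cap exceeded the core in both libraries with one. These are shares of 3′ reads, which compare the classes between libraries. After scaling between libraries, the summed reads of the cap were 3.33-fold higher in cancer control than in normal control, with a log2 ratio of 1.74 (95% interval 1.72 to 1.75). The core was 2.30-fold higher, with an interval of the log2 ratio of 1.18 to 1.22. The 3 immunoproteasome genes took far fewer reads, with 62.5 CPM in normal control and 91.3 in normal exercise, against 31.4 in cancer control and 47.4 in the cancer exercise library.

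**Figure D2:**
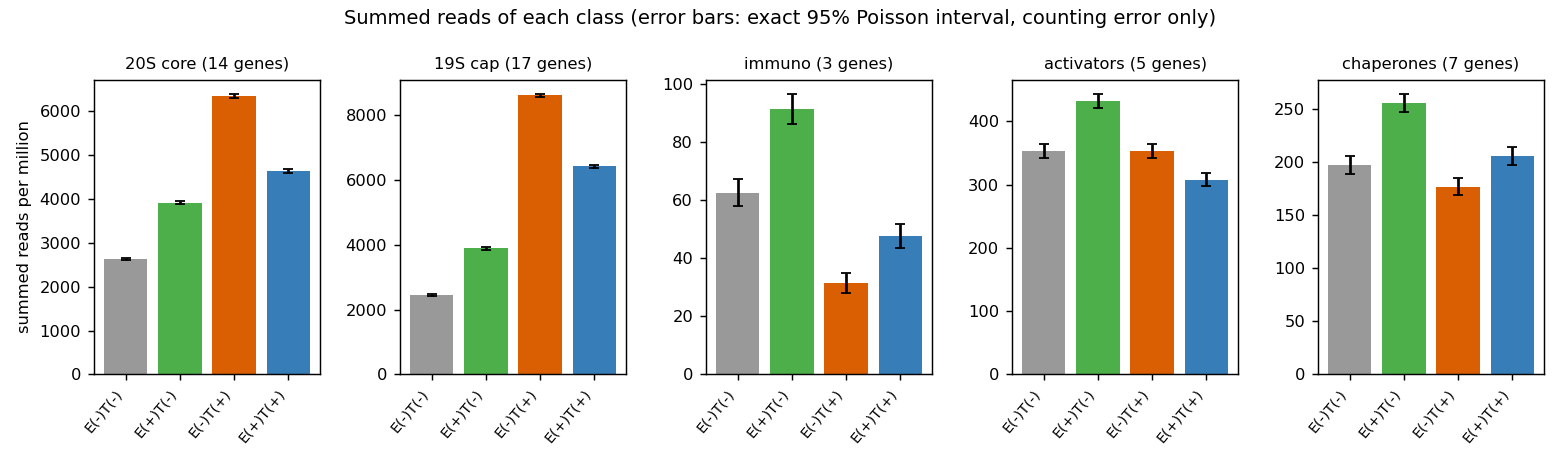
Summed CPM of each class in each library, with exact 95% Poisson intervals for counting error; each panel has its own vertical axis starting at 0. Core and cap are highest in cancer control at 6351 and 8601 CPM, and the immunoproteasome is lowest there at 31.4.

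The first comparison set the tumor against no tumor in mice without exercise. The paper reports lower food intake with cancer and weight loss in the cancer control mice. The tumor and the lower food intake cannot be told apart here. In cancer control against normal control, 26 of the 48 proteasome genes that met the minimum were called higher and 4 lower, and the median log2 fold change was 1.04. Of all 14818 genes that met the minimum in this comparison, 20.9% were called higher and 24.2% lower, with a median of -0.04. Of the 2780 genes whose mean level lay within the range of the core and cap subunits, 541 were called higher and 358 lower. Among the 31 core and cap subunits, 23 were called higher and 0 lower. All 31 had a positive log2 fold change with an interval above 0, from 0.20 for Psmb7 to 2.80 for Psmd4, and the median was 1.27, a 2.42-fold difference.

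In the alpha rings, whose subunits form the gate and the outer frame of the core, 3 of 7 genes were called higher in cancer control. Psma7 had normalized read counts of 5548 in normal control and 9795 in normal exercise, against 20100 in cancer control and 17450 in the cancer exercise library. Both tumor libraries lay above both libraries without a tumor, and cancer control was 1.86 above normal control on the log2 scale (1.81 to 1.90). Psma2 had 3533, 4924, 10420 and 4636 in the same order, so that only the cancer control library stood apart. The log2 fold change of Psma2 was 1.56 and that of Psma6 was 1.49. The smallest alpha difference was that of Psma3, 0.54, with normalized read counts of 1744 in normal control and 1730 in normal exercise, against 2534 in cancer control and 2441 in the cancer exercise library. Psma1 (0.67), Psma4 (0.80) and Psma5 (0.97) also stayed under 2-fold.

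In the beta rings, which carry the catalytic sites, 5 of 7 genes were called higher. Psmb2 (1.44), Psmb4 (1.38), Psmb3 (1.22) and Psmb1 (1.03) have no catalytic site of their own. Of the 3 catalytic subunits, Psmb5, which carries the chymotrypsin-like site, was called higher, with normalized read counts of 1068 in normal control and 1480 in normal exercise, against 2246 in cancer control and 1471 in the cancer exercise library. Psmb6, with the caspase-like site, differed by 0.51 (0.43 to 0.59) and Psmb7, with the trypsin-like site, by 0.20 (0.14 to 0.26). Psmb6 and Psmb7 had the smallest differences of all 31 core and cap genes. Psmb7 had 4251 in normal control and 5278 in normal exercise, against 4887 in cancer control and 5049 in the cancer exercise library, and it was the only one of the 31 with its highest value in normal exercise.

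In the cap, 15 of 17 genes were called higher, and the median log2 fold change was 1.36 against 1.05 in the core. The 6 genes with the largest differences among the 31 were all cap genes, with the alpha subunit Psma7 close behind. The largest was that of Psmd4, a receptor for ubiquitin chains on the cap. Its normalized read counts were 2626 in normal control and 3742 in normal exercise, against 18280 in cancer control and 12300 in the cancer exercise library, a log2 fold change of 2.80 (2.74 to 2.86) between cancer control and normal control. Psmc4, an ATPase of the ring that unfolds the substrate, had 563.6, 1157, 3912 and 1838, a difference of 2.79 (2.66 to 2.93). Psmd8 had 2192, 4314, 12150 and 10240, a difference of 2.47. The order of the 4 libraries was the same for Psmd4, Psmc4 and Psmd8, and no value of a tumor library fell below one without a tumor.

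Of the 6 ATPases, 5 were called higher. Psmc1 had a log2 fold change of 1.93, Psmc2 of 1.86, Psmc3 of 1.29 and Psmc6 of 1.05, while Psmc5 stayed at 0.78 (0.65 to 0.91). Of the 11 cap genes without ATPase activity, 10 were called higher. Psmd3 differed by 2.19, Psmd11 by 1.79 and Psmd2, the scaffold to which shuttle proteins bind, by 1.72. Psmd14 is the deubiquitinase that removes the chain, and it differed by 1.09. Its close partner Psmd7, which has no activity of its own, differed by 0.62 (0.55 to 0.68) and was the one gene of this group that was not called.

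**Figure D3:**
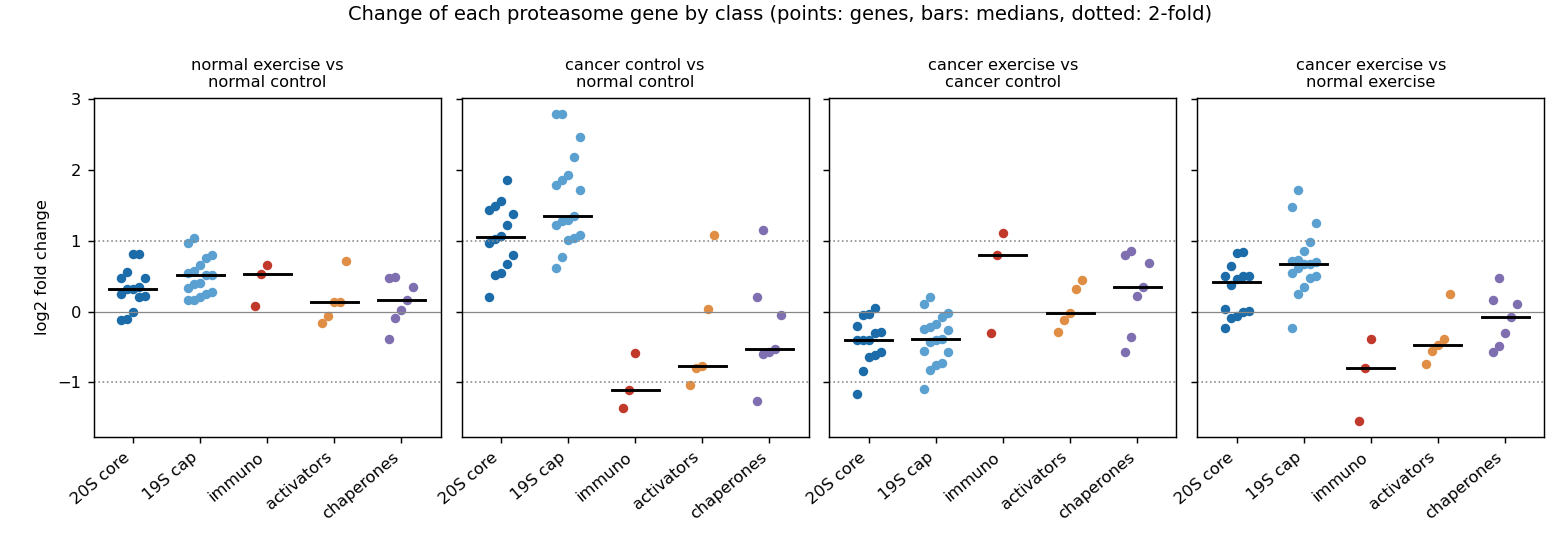
Log2 fold change of each proteasome gene in the 4 comparisons, by class; points are genes, bars are medians and dotted lines mark a 2-fold difference. In cancer control against normal control the cap and core medians are 1.36 and 1.05 and the immunoproteasome median is -1.11, and in cancer exercise against cancer control, which shares the cancer control library, they are -0.39, -0.40 and 0.80.

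The second comparison set exercise against no exercise in mice without a tumor. In normal exercise against normal control, 2 of 49 proteasome genes were called higher and 0 lower, while 9.44% of all genes were called higher and 12.1% lower. The normal control library is the same as in the comparison above. Of the 2780 genes in the level range of the core and cap subunits, 49 were called higher and 58 lower. The differences were small but mostly of 1 sign: 28 of the 31 core and cap genes were positive, with intervals above 0 for those 28, and their median log2 fold change was 0.39 against -0.01 over all genes. All 17 cap genes were positive, with a median of 0.51, and 11 of 14 core genes, with a median of 0.31. Psmc4 was called, at 1.04 (0.89 to 1.18), and Psmd8 stood just under the threshold at 0.98 (0.90 to 1.05). Psma7 (0.82), Psmb4 (0.81), Psmd2 (0.80) and Psmd3 (0.76) followed. Psma1 (-0.12), Psmb1 (-0.11) and Psma3 (-0.01) were the 3 negative values, of which only the interval of Psmb1 lay below 0. The other gene called was Psmb11, on 3 reads against 13. Scaling by total reads in place of the deposited normalization raised the median of all genes in this comparison to 0.15, and that of all members from 0.34 to 0.51.

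The third comparison set exercise against no exercise in mice with the tumor. In cancer exercise against cancer control, 1 of 48 proteasome genes was called higher and 2 lower, while 15.6% of all genes were called higher and 15.1% lower. Of the 2780 genes in the level range of the core and cap subunits, 155 were called higher and 93 lower. The cancer control library is the one compared with normal control above, so a deviation of that library enters both comparisons. Of the 31 core and cap genes 28 were negative, 25 of them with intervals below 0, and the median log2 fold change was -0.40 against 0.01 over all genes. The core median was -0.40 and the cap median -0.39. The genes called lower were Psma2, which fell by 1.17 on the log2 scale (interval -1.22 to -1.12), and Psmc4, which fell by 1.09 (-1.17 to -1.01). Psmb2 (-0.84), Psmc1 (-0.83), Psmd14 (-0.76) and Psmd3 (-0.72) came next and stayed under 2-fold. Psmd7 (0.21), Psmd6 (0.10) and Psmb7 (0.05) were positive. The gene called higher was Psmb8, of the immunoproteasome.

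These 2 comparisons share no library, so their values can be set side by side. Of the 31 core and cap genes, 25 were positive with exercise in mice without a tumor and negative with exercise in mice with one, 0 had the reverse pattern and 6 had the same sign in both. Across the 31 genes the 2 differences had a Pearson r of -0.28 and a Spearman rho of -0.22, a description of genes measured in the same 4 libraries and not of replicates. Psmc4 was the clearest case, at 1.04 and -1.09. Psmb8 was positive in both, at 0.54 and 1.11. The signs and correlations were not worked out over all genes, so they are not shown to be particular to these subunits. The difference between the 2 exercise comparisons was not tested.

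**Figure D4:**
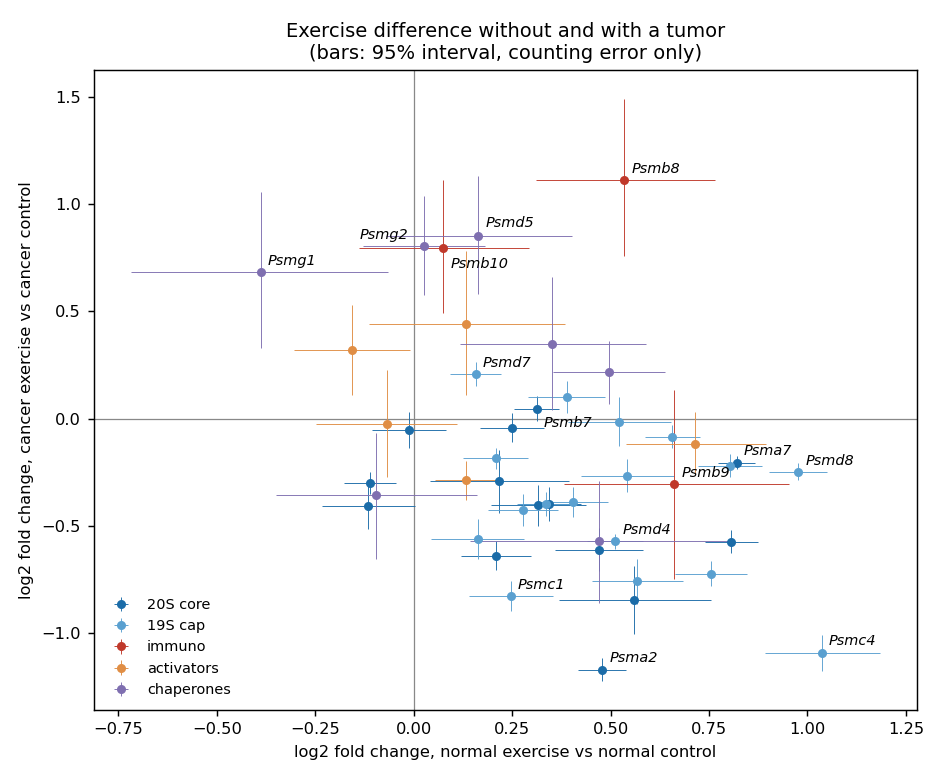
Log2 fold change with exercise in mice without a tumor (horizontal) and with a tumor (vertical) for the proteasome genes of 5 classes, with 95% counting intervals. Of the core and cap genes 25 lie in the lower right part, with Psmc4 farthest out at 1.04 and -1.09, while Psmb8, Psmb10 and the Psmg chaperones lie in the upper part.

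The fourth comparison set the tumor against no tumor within exercised mice. In cancer exercise against normal exercise, 3 of 49 proteasome genes were called higher and 2 lower, while 13.9% of all genes were called higher and 16.3% lower. In the level range of the core and cap subunits it was 274 and 138 of 2780 genes. The 3 called higher were cap genes, Psmd4 at 1.72 (1.67 to 1.77), Psmc2 at 1.47 (1.41 to 1.54) and Psmd8 at 1.25. Of the 31 core and cap genes 26 were positive, with a median of 0.51, and the cap median of 0.67 exceeded the core median of 0.42. The beta ring had a median of 0.002, with Psmb1 at 0.84 and Psmb6 at -0.23. Psmb4, Psmb5, Psmb2 and Psma2 differed by less than 0.1 in either direction, although each was called higher in cancer control against normal control. Scaling by total reads lowered the median of all members from 0.35 to 0.19 and that of all genes to -0.18. Across the 31 genes, the tumor differences without and with exercise, which share no library, had a Pearson r of 0.63 and a Spearman rho of 0.58. The genes called lower were Psmb9 and, on 13 reads against 1, Psmb11.

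The immunoproteasome subunits are set apart from the rest of the complex by their inducibility. Psmb8 and Psmb9 lie close to each other in the class II region of chromosome 17 (chr17:34198195-34201454 and chr17:34182030-34187330, GRCm38), and Psmb10 lies on chromosome 8. Psmb8, which takes the place of Psmb5, had normalized read counts of 261.7 in normal control and 379.6 in normal exercise, against 100.7 in cancer control and 218.8 in the cancer exercise library. Psmb10, which takes the place of Psmb7, had 325.5, 342.9, 150.0 and 261.1. Both were called lower in cancer control, Psmb8 at -1.37 (-1.74 to -1.03) and Psmb10 at -1.11 (-1.42 to -0.83), and with exercise in tumor mice they differed by 1.11 (0.76 to 1.49) and 0.80 (0.49 to 1.11). Psmb9, which takes the place of Psmb6, had 161.7, 256.4, 107.2 and 86.7. It was low in both tumor libraries, and its difference with exercise in tumor mice was -0.30 with an interval of -0.75 to 0.13 that spans 0. In exercised mice it was called lower with the tumor, at -1.55 (-1.94 to -1.21).

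The share of immunoproteasome reads within each catalytic pair does not depend on scaling between libraries. Psmb8 made up 19.7% of the reads of Psmb8 and Psmb5 in normal control (17.5% to 21.99%), 20.4% in normal exercise (18.8% to 22.1%), 4.29% in cancer control (3.48% to 5.22%) and 12.9% in cancer exercise (11.3% to 14.7%). The 2 libraries without a tumor had overlapping intervals, and both tumor libraries were separate from them and from each other. Psmb9 made up 6.92% and 8.49% of its pair in the libraries without a tumor, and 3.34% and 3.55% in cancer control and cancer exercise, whose intervals overlapped. Psmb10 made up 7.11%, 6.10%, 2.98% and 4.92% of its pair in the same order of libraries. For Psmb10 the intervals of normal exercise (5.55% to 6.69%) and cancer exercise (4.33% to 5.56%) overlapped slightly. That of cancer control (2.51% to 3.50%) was separate from the others. Over the 3 pairs the share was 9.08%, 9.32%, 3.38% and 5.999% in that order. The shares are shares of 3′ reads and not of proteins.

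**Figure D5:**
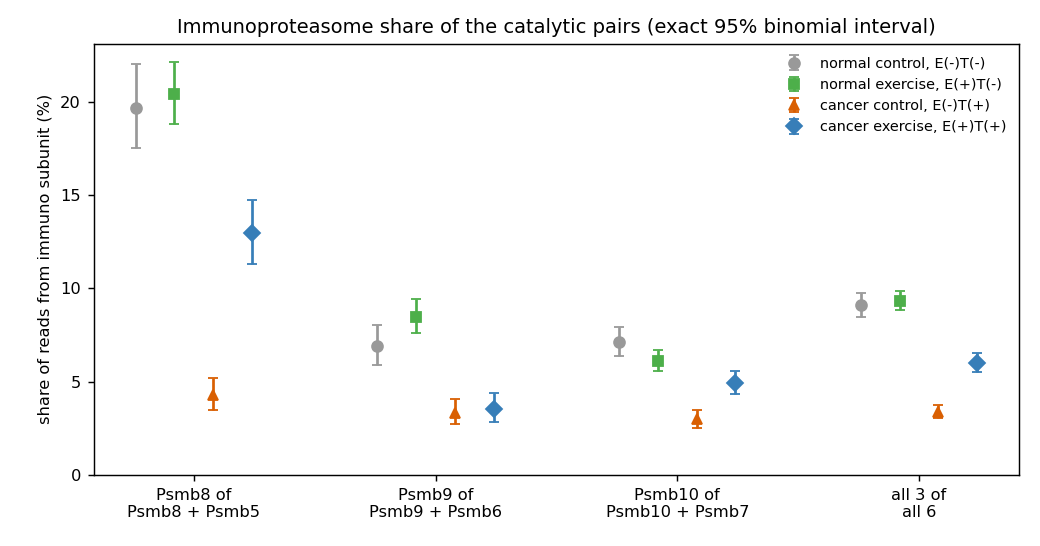
Share of reads from the immunoproteasome subunit in each catalytic pair (percent) in the 4 libraries, with exact 95% binomial intervals for counting error. The share of Psmb8 is 4.29% in cancer control against 19.7% in normal control, and it is 12.9% in cancer exercise.

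Most other interferon genes examined were also lower in the cancer control library. Of 16 genes induced by interferon, 11 were called lower and 0 higher in cancer control against normal control, where 24.2% of all genes were called lower. Their median log2 fold change was -1.30, and 2 of the 16 were positive. The GTPases Igtp (-2.77) and Gbp7 (-2.34) and the antiviral gene Ifit3 (-2.75) were among them, while Irf1, a transcription factor, was at -0.11. With exercise in tumor mice 4 of 15 were called higher and 1 lower, beside 15.6% and 15.1% of all genes, and Igtp differed by 2.17. Of 11 genes of class I presentation, 0 were called in either direction in cancer control, with H2-D1 at -0.001, B2m at -0.16 and Calr at 0.30. They ran from -0.73 for Pdia3 to 0.90 for Nlrc5, the latter on 6 and 12 reads. In cancer exercise against normal exercise 0 of the 11 were called higher and 2 lower, beside 13.9% and 16.3% of all genes. Their median there was -0.43, and 7 had intervals below 0.

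The markers of leukocytes, which carry much of the immunoproteasome of a tissue, were mixed in direction. The summed share of their 16 genes in all reads was 0.0221% without and 0.0288% with exercise in mice without a tumor, and 0.0438% without and 0.0335% with exercise in mice with one. Of 13 that met the minimum, 5 were called higher and 3 lower in cancer control, beside 20.9% and 24.2% of all genes, and 7 had a negative log2 fold change. The higher sum in cancer control came from S100a8 and S100a9, proteins of neutrophils, and Cd68 of macrophages. Between normal control and cancer control S100a8 went from 16 to 1918 reads, Cd68 from 87 to 957 and S100a9 from 47 to 415. In the opposite direction Cd74, the invariant chain of cells that present antigen, was at -1.74, and Csf1r, a receptor of macrophages, was at -0.69. The T cell gene Cd8a had 0 reads in all 4 libraries, which allows up to 2.82e-05% of the reads of the smallest library. Cd4, Cd3e and Nkg7, of T and NK cells, had 0 reads in normal control and cancer exercise, and Cd79a of B cells and Itgax had 0 in both tumor libraries. These marker genes were named after their values were seen. The part of leukocytes in the immunoproteasome values was not tested.

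The activators open the core in place of the cap. Psme1 and Psme2, neighbors on chromosome 14 that form the interferon-inducible ring, were lower in cancer control by less than 2-fold. Psme1 had normalized read counts of 497.7 in normal control and 474.4 in normal exercise, against 287.0 in cancer control and 282.7 in the cancer exercise library, and Psme2 had 244.6, 268.5, 142.5 and 193.8. Their log2 fold changes in cancer control were -0.79 (-1.02 to -0.58) and -0.78 (-1.10 to -0.47). Relative to the cap, which competes for the ends of the core, their share of the summed reads of Psme1, Psme2 and the 6 cap ATPases was 7.52% in normal control and 5.60% in normal exercise, against 1.52% in cancer control and 2.17% in the cancer exercise library. Psme3, the activator of the nucleus, went the other way, with 406.3, 667.1, 861.3 and 794.7, and it was called higher in cancer control at 1.08 (0.91 to 1.26). Psme4, an activator that forms a dome on the core, stayed between 1949 and 2552 in the 4 libraries. Psme2b, a copy of Psme2, was called lower at -1.04, but its reads may be exchanged with those of Psme2, and exons of the gene 9930111J21Rik1 overlap its end on the same strand.

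The chaperones assemble the complex and are not part of it. The 4 Psmg genes build the alpha ring. In cancer control Psmg2 was called lower at -1.27 (-1.49 to -1.05), Psmg1 (-0.60) and Psmg3 (-0.57) were negative with intervals below 0, and Psmg4 was positive at 0.21 (0.05 to 0.36). Psmg2 had normalized read counts of 635.1 in normal control and 647.1 in normal exercise, against 263.5 in cancer control and 460.4 in the cancer exercise library. With exercise in tumor mice all 4 were positive with intervals above 0, with a median of 0.52 where the core had -0.40. The chaperones of the cap differed from each other. Psmd9 was called higher in cancer control at 1.15 (0.84 to 1.49), with 125.5, 174.2, 280.5 and 188.5 in the 4 libraries in the order above, while Psmd5 was at -0.53 (-0.82 to -0.24) and Psmd10 at -0.05.

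Psmf1, which binds the core and inhibits it in purified systems, had the same order of libraries as most subunits. It had normalized read counts of 184.1 in normal control and 192.1 in normal exercise, against 648.0 in cancer control and 354.1 in the cancer exercise library, and was called higher at 1.81 (1.57 to 2.07). The alpha subunit of the testis, Psma8, had 0 reads in every library. The beta subunit of the thymus, Psmb11, had 3, 13, 3 and 1 reads, at or near the floor of 3 reads in 3 of the libraries. Psmc3ip shares the symbol pattern but is a recombination factor and no proteasome gene. It had 52, 123, 103 and 116 reads.

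Partners of the proteasome outside the symbol rule were examined as lists, which were chosen with earlier results of these data known. Of 12 genes of associated proteins, 5 were called higher and 0 lower in cancer control against normal control, where 20.9% of all genes were called higher and 24.2% lower. Their median log2 fold change was 0.85. Adrm1, the other ubiquitin receptor of the cap, had normalized read counts of 699.9 in normal control and 864.3 in normal exercise, against 3133 in cancer control and 1898 in the cancer exercise library, a difference of 2.16 beside the 2.80 of Psmd4. Usp14, a deubiquitinase that binds the cap, was at 1.44 and Txnl1, a thioredoxin-like protein of the cap, at 1.55. Zfand2a, an arsenite- and heat-inducible binding partner, went from 43.7 to 481.7 and was at 63.98 in cancer exercise. Pomp, the maturation factor of the core, was at 0.25 and Shfm1, the smallest cap subunit, at -0.55. Of 9 genes that deliver substrates, 7 were called higher, among them Rad23b (1.30), Ubqln2 (1.15) and Nploc4 (2.61), a cofactor of the segregase Vcp, which itself was at 0.45.

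The transcription factor Nfe2l1 is known to raise the subunit genes together when the proteasome is impaired, after release from the endoplasmic reticulum and cutting by the protease Ddi2. Of 11 genes of this route, 2 were called higher and 0 lower in cancer control, a share near the 20.9% of all genes called higher. The median log2 fold change of the 11 was 0.50. The 2 called were Ddi2 and Mafk. Ddi2 and Vcp are also on the list of genes that deliver substrates, so Ddi2 is counted as called in both lists. Ddi2 had normalized read counts of 147.9 in normal control and 121.4 in normal exercise, against 1384 in cancer control and 293.5 in the cancer exercise library, a log2 fold change of 3.22. Mafk, a small partner of Nfe2l1, had 180.9, 164.4, 1452 and 416.9, a difference of 2.998. For both the cancer control library stood apart from the other 3. The mRNA of Nfe2l1 itself differed by 0.11 and that of the related Nfe2l2 by -0.05, and its activity as a protein was not measured. Of 7 ubiquitin ligases of muscle wasting 5 were called higher, beside the same 20.9%, with Trim63 at 3.98 and Fbxo32 at 3.38. In normal exercise against normal control Trim63 and Fbxo32 were called lower, at -1.70 and -2.14.

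Upstream sequences were read because the subunits moved together. RefSeq windows of 250 bases before the start site (GRCm38.p6) were matched by symbol for 42 of the 50 genes, 25 of them core or cap genes. Both strands were searched. Of the 45 windows of these genes, 39 led into the opening part of an annotated transcript of the gene, and that of Psmb6 did not. The core of the antioxidant response element (TGACNNNGC), which Nfe2l1 and Nfe2l2 bind with a small Maf partner, was in 4 of the 25, against 11.5% of 27025 genes with a window. The 4 were Psmb5, Psmb6, Psmc6 and Psmd12, and their log2 fold changes in cancer control ran from 0.51 to 1.22, with a median of 1.06, while the 21 without a match had a median of 1.38. Among the chaperones Psmd9 held it. These stretches show the match in capitals with up to 10 bases on each side, read along the gene; in Psmc6 and Psmd12 the motif lies on the opposite strand and reads as its reverse complement. RefSeq places the start of the Psmb6 gene record at position 70525324, before the window ends. By that record the match in Psmb6 lies inside the gene, and it is upstream only of the later start used for the window. Annotated exons of the gene itself overlap the windows of Psmb5, Psmc6 and Psmd12. Whether they cover the matches was not examined.
Psmb5 (chr14:54618024-54618052, minus strand): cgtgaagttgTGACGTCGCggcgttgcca
Psmb6 (chr11:70525338-70525356, plus strand): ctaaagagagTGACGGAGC
Psmc6 (chr14:45329587-45329615, plus strand): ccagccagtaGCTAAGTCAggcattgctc
Psmd12 (chr11:107479278-107479299, plus strand): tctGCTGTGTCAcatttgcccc
Psmd9 (chr5:123228149-123228177, plus strand): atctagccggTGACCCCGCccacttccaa

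The CCAAT box (CCAAT) was in 10 of the 25 core and cap genes, against 37.5% of all genes. The median log2 fold change in cancer control was 1.53 with the box and 1.22 without it, and both sets spanned nearly the whole range. Psma7 (1.86), Psmc1 (1.93) and Psmc2 (1.86) held the box in windows that did not lead into an annotated transcript. The difference of the medians was not tested. The window of Psmd4, the gene with the largest difference, and the matching window of Psma6 are shown whole. No annotated exon overlaps these windows. A further window of Psma6, at a later start, held no CCAAT box and overlaps annotated exons of the gene. The capitals mark ATTGG or CCAAT, and in Psmd4 also TTTCCATTTC, the reverse complement of an interferon-stimulated response element core (GAAA, any 2 bases, GAAA), which 3.46% of all genes held. This core was in 2 of the 25 core and cap genes, Psmd4 and Psmb3, and in 3 of all 42 genes with Psmd9. Of the 3 immunoproteasome genes, 0 held it.
Psmd4 (chr3:95042615-95042864, minus strand): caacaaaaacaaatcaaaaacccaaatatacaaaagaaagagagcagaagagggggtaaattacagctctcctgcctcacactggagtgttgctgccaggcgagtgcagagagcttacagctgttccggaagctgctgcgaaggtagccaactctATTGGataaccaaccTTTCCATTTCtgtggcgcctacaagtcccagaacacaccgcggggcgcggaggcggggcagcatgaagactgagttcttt
Psma6 (chr12:55383972-55384221, plus strand): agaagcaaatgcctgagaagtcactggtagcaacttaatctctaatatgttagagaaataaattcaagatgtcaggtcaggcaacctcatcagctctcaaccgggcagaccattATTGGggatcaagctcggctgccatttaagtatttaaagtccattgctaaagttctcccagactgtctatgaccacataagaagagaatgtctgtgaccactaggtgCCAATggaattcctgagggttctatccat

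The gamma-activated site (TTCNNNGAA), an element of genes induced by interferon gamma, was in the windows of 2 of the 42 genes, against 8.13% of all genes. One was Psmb8 and the other was Psmg1. Both were lower in cancer control than in normal control, at -1.37 and -0.60. The pattern is symmetric, so that a match on one strand is also one on the other. A match says only that these letters are in the window. An annotated exon of Psmb8 itself overlaps the Psmb8 window.
Psmb8 (chr17:34198088-34198116, plus strand): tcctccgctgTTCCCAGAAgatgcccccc
Psmg1 (chr16:95991185-95991210, minus strand): actcatgTTCTCTGAAtccgcttgca

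Some values carry an uncertainty of counting. How strand and reads matching several places were treated is not given in the sources used here. Exons of genes on the opposite strand overlap the last 1000 bases of Psmb7 (Nek6), Psmc3 (Slc39a13), Psme1 (Emc9) and Psmc3ip (Mlx). Processed pseudogenes of Psmb5, Psmb6 and Psmb7 are annotated, so part of their reads may be shared with these copies.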

How the data were processed

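RNA was sequenced in 4 libraries of gastrocnemius, 1 per group, and the sample titles gave the groups. The authors used Bowtie2 for alignment, Bedtools coverage for counts of each gene and edgeR for quantile normalization, and the submitters' processing notes name mm10. Deposited values are on the log2 scale, as normalized read counts to which 1 was added. Whole reads were rebuilt from these values with 1 scale per library and 1 dispersion of 0.339, which gave 100% of the values within 0.0006. Of the values, 94.9% to 96.2% per library match a single read count, and the counts of the most abundant genes are approximate. This step was tested on simulated data.

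Fold changes were differences of deposited values, on the log2 scale with a pseudocount of 1, called at 2-fold or more where 1 of the 2 libraries reached a normalized read count of 4. Ratios of summed reads used the rebuilt scales. Intervals are Clopper-Pearson or Poisson 95% intervals. No molecular identifiers are mentioned for the reads, so intervals and the floor of 3 reads (2.27e-05% to 2.82e-05% of a library) cover counting error only. Members and gene lists were chosen with earlier results of these data known. All members could be named, and of the associated, shuttle and Nfe2l1 lists those meeting the minimum. Of other lists it was the 3 with the highest mean and the 3 with the largest difference in cancer control. Some leukocyte markers with 0 reads in a library were named outside this rule. Values of some listed genes are not reported here. Other scalings, pseudocounts, minimums and fold thresholds were also tried. Gene coordinates and upstream windows are from RefSeq on GRCm38.p6, and overlaps from GENCODE M21. Python 3 with pandas, numpy and scipy was used.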

Additional observations from a re-analysis of the deposited data

Results flagged for a closer look

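The difference with exercise had opposite signs in mice with and without a tumor for several results, and each group had 1 library, so none of these differences between differences was tested. Subtracting the log2 difference in mice without a tumor from that in mice with one gave -2.13 for Psmc4, which was 1.04 without and -1.09 with a tumor. For the summed reads this gave -0.78 over all 50 members and -0.83 over the 31 core and cap subunits. The core alone was at -0.80 and the cap alone at -0.86. The 5 activators were at -0.27, from 0.13 (0.08 to 0.19) without a tumor to -0.13 (-0.20 to -0.07) with one. No group had enough libraries to look for an outlier.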

How the results depend on the processing

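No paired analysis was possible because each group had 1 library and the labels carry no replicate numbers, and for the same reason no library could be left out. Of the alternatives to the main comparisons 104 stayed within 1.5 times the reported count or within the spread used for values, and 28 moved. The 104 include TMM scaling and the shares of the catalytic pairs taken from normalized read counts. Neither of these could move a value by much. Scaling by total reads gave median log2 fold changes of 0.51 in normal exercise against normal control and 0.19 in cancer exercise against normal exercise, where it shifted the median of all genes to 0.15 and -0.18. The summed core and cap reads then differed by 1.56 in cancer control against normal control, 0.62 in normal exercise against normal control, -0.44 in cancer exercise against cancer control and 0.50 in cancer exercise against normal exercise. The summed activators in cancer control against normal control changed sign, from -0.07 to 0.003. For cancer control against normal control, a threshold of 1.5-fold gave 8 lower, 4-fold gave 4 higher and 0 lower, and core and cap subunits alone gave 0 lower with a median of 1.27. For normal exercise against normal control, a minimum of 16 left 1 higher, 1.5-fold gave 11 higher, 4-fold gave 0 higher, and core and cap subunits alone gave 1 higher. For cancer exercise against cancer control, 1.5-fold gave 5 higher and 9 lower, 4-fold gave 0 in either direction, and core and cap subunits alone gave 0 higher with a median of -0.40. For cancer exercise against normal exercise, a minimum of 16 left 1 lower, 1.5-fold gave 15 higher and 4 lower, 4-fold gave 0 higher and 1 lower, and core and cap subunits alone gave 0 lower with a median of 0.51. Both pseudocounts, median-of-ratios scaling and no minimum moved none of the counts by over 1.5 times and none of the medians. TMM scaling moved none either, but the scales fitted to the deposited values already lay within 0.0076% of the TMM scales. With 1 library per group, differences between animals and between conditions cannot be told apart.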
